A study of Mus musculus with 18 samples.

Results

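The genes described here are 6 genes of GABA signalling, 4 that encode subunits of the GABA-A receptor (Gabrg1, Gabra2, Gabrb1 and Gabra4) and 2 that handle GABA itself (Abat and Slc6a11). They were taken by symbol from the 55536 genes of the count table, and each of the 6 passed the filter on low counts in every comparison. Counts came from RNA sequencing of cells enriched from the mouse striatum by magnetic sorting for CD11b, an integrin on the surface of myeloid cells, microglia among them. The 18 libraries fall into 4 genotypes on a C57BL/6 background: 5 from wild-type (WT) mice, 3 from Tyrobp-/- mice, 5 from Q175 mice and 5 from Q175;Tyrobp-/- mice. Q175 mice are heterozygous for a huntingtin allele with an expanded CAG repeat and serve as a model of Huntington's disease. Tyrobp encodes an adaptor of microglial receptors such as TREM2, and its deletion is present in every cell of the animal from the germline on, so no genotype tests a deletion in microglia alone. The labels give neither an age nor an agent for any group. Females gave 1 of 5 WT, 2 of 3 Tyrobp-/-, 4 of 5 Q175 and 2 of 5 Q175;Tyrobp-/- libraries. Each library is given as the cells of 2 striata by the labels and of 1 striatum by the study's methods. Nothing in the labels says which libraries came from the same preparation, and p-values measure the spread between these libraries.

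GABA, the main inhibitory transmitter of the brain, opens GABA-A receptors, chloride channels built of 5 subunits that are usually drawn from the alpha, beta and gamma families. Neurons and glia draw on different subunits, and astrocytes are known for Gabrg1, Gabra2 and Gabrb1. Gabra4 is the alpha subunit that medium spiny neurons (MSNs), the projection neurons of the striatum, use together with the delta subunit outside synapses. Released GABA is taken up into astrocytes by GAT-3 (Slc6a11), and GABA transaminase (Abat) breaks it down in mitochondria. Microglia are not best known for these transcripts, although the study cites work that found GABA receptors in microglia.

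The subunit genes form 1 cluster of 1398 kb on chromosome 5 of GRCm38 (GENCODE M21). Gabrg1 (ENSMUSG00000001260) lies from 70751047 to 70842617, Gabra2 (ENSMUSG00000000560) from 70957597 to 71095849, and Gabra4 (ENSMUSG00000029211) from 71569749 to 71658308, all on the minus strand. Gabrb1 (ENSMUSG00000029212) runs the other way, from 71658113 to 72149037 on the plus strand, and shares 196 bases with the start of Gabra4, of which 46 are exonic in both. The libraries do not keep the strand, so reads within those 46 bases cannot be assigned to one of the pair, against exonic lengths of 6083 bases for Gabra4 and 13838 for Gabrb1. Slc6a11 (ENSMUSG00000030307) lies on chromosome 6 from 114131241 to 114249952 and Abat (ENSMUSG00000057880) on chromosome 16 from 8513429 to 8621568, both on the plus strand.

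The stretches just before the start sites are shown because the cluster's genes varied together across the libraries, as described further on, while their promoters differ in base composition. They are RefSeq sequence of GRCm38.p6, read 5′ to 3′ on the gene's own strand, with each CG dinucleotide in capitals. The Gabra4 stretch stops 56 bases before its start, since the bases nearer to it overlap an exon of Gabrb1. No entry for Abat was used, and the Gabrb1 window overlaps an exon of Gabra4 and is not shown.
Gabrg1, chr5:70842618-70842867, minus strand: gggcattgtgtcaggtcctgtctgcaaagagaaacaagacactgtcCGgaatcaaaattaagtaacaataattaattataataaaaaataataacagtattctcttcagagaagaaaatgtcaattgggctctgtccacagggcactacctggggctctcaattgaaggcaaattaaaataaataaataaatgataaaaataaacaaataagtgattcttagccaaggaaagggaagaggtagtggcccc
Gabra2, chr5:71095850-71096099, minus strand: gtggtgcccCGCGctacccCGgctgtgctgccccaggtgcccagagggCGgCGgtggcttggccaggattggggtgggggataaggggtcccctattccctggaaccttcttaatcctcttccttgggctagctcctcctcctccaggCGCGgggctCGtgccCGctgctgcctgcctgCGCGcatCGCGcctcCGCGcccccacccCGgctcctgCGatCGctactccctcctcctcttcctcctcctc
Gabra4, chr5:71658364-71658558, minus strand: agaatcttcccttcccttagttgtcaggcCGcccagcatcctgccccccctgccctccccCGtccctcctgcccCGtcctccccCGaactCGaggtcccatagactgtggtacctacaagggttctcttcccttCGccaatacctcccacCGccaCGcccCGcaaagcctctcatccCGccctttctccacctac
Slc6a11, chr6:114130991-114131240, plus strand: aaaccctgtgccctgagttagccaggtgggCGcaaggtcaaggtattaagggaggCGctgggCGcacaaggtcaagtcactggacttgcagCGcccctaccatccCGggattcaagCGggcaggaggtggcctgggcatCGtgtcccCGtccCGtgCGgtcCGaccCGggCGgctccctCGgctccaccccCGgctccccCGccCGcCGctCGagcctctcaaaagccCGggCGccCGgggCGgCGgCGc

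Gabrg1 stands apart in this row, with 1 CG dinucleotide in the 250 bases shown against 18 for Gabra2 and 25 for Slc6a11. In the whole window of 250 bases before and 50 after the start, Gabrg1 held 3 CG dinucleotides at a GC content of 38.3%, and 23.3% of the 32851 promoters of the table held fewer. Gabra2 and Gabrb1, the latter at the upstream of its RefSeq starts, each held 25 (81.6% held fewer), Gabra4 held 12 (60.4%) and Slc6a11 held 32 (90.5%), beside a median of 7.0 over all promoters. Of the motifs searched on both strands, the GC box (GGGCGG, in 35.7% of promoters) matched Gabra2, Gabra4 and Slc6a11, and CCAAT (37.4%) matched Gabra2, Gabra4 and Gabrg1. TATAAA (13.6%), the full NFI palindrome (0.0365%) and the CRE TGACGTCA (1.79%) matched none of the 5 genes. CCAAT and the NFI palindrome can overlap, and these matches describe the letters only.

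All 6 genes had counts in all 18 libraries. The level of 14 microglial markers, the geometric mean of their normalized counts plus 1, averaged 15397 ± 1711 in WT, 18219 ± 3732 in Tyrobp-/-, 14177 ± 3317 in Q175 and 16862 ± 2089 in Q175;Tyrobp-/- (SD, n = 5, 3, 5 and 5), and none of the 14 was at 0 in any library. The label of microglia matched these markers, but none of the 15 astrocyte, 10 pan-neuronal, 12 MSN or 10 oligodendrocyte markers was at 0 either. Tyrobp had between 3629 and 8793 normalized counts in the WT and Q175 libraries and between 183 and 395 in the libraries of both knockout genotypes. Total counts were between 11260410 and 29771983 per library.

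Compared per kilobase of exon, the enzyme and the transporter were the most abundant of the 6 and the subunits the least. The median over the 18 libraries was 5.47 CPM per kb for Abat, 5.10 for Slc6a11, 1.77 for Gabrb1, 0.965 for Gabra4, 0.871 for Gabrg1 and 0.592 for Gabra2, beside 684.7 for the microglial gene P2ry12 and 3.70 for the astrocyte gene Aqp4. Within single libraries Abat was above Slc6a11 in 14 of 18 and Slc6a11 above Gabrb1 in 17 of 18. Gabrb1 was above Gabra4 in 17 of 18 and Gabrg1 above Gabra2 in 16 of 18. Gabra4 was above Gabrg1 in only 10 of 18, so these neighbours in the order did not differ beyond their spread. Each gene ranged widely, from 8.15-fold between the lowest and the highest library for Gabrb1 to 17.7-fold for Gabra4.

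**Figure D1:**
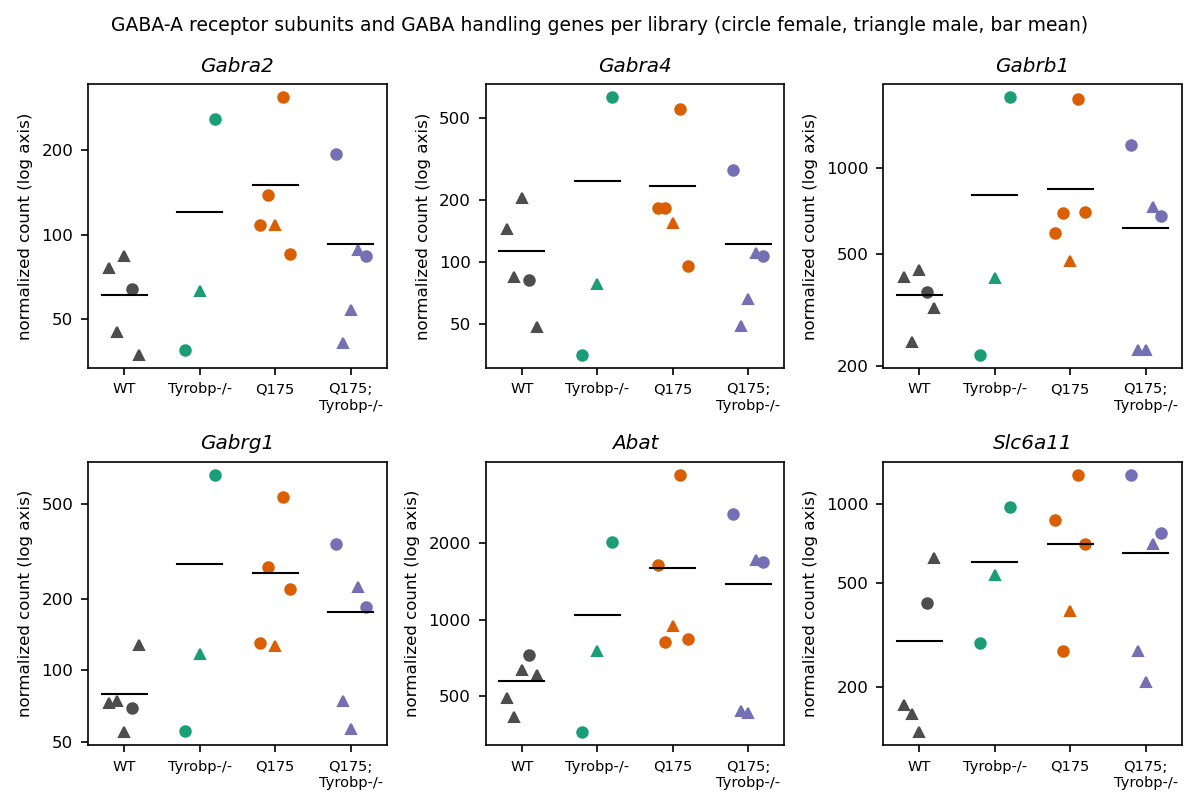
Normalized counts (log axis) of the 6 genes in each library, grouped by genotype, with circles for females, triangles for males and a bar at the group mean. In Tyrobp-/-, Q175 and Q175;Tyrobp-/- 1 female library each lies above the rest of its group for all 6 genes.

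The comparison of Q175 with WT asks how microglia change in the presence of the expanded huntingtin allele. All 6 genes were higher in Q175, by log2 fold changes between 1.08 and 1.71 with a median of 1.31, where the median of all 18266 genes tested was -0.02. edgeR's quasi-likelihood test called none of them at an FDR of 0.1, as it called 0% of all genes. At an unadjusted p under 0.05 it counted 6 of 6 as higher, beside 5.47% of all genes tested. DESeq2's Wald test, the study's tool, called 4 of the 6, beside 1.28% of all genes. In bulk samples such as these, more cells of a type and more RNA per cell cannot be told apart.

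Gabrg1, the gamma subunit gene known from astrocytes, showed the largest difference of the 6. WT replicates 1, 2, 6, 7 and 8 gave 72.5, 74.5, 54.9, 69.5 and 127 normalized counts, and Q175 replicates 3, 4, 9, 14 and 17 gave 130.5, 273.5, 127, 537 and 219.9. Only WT replicate 8 reached the range of Q175, about level with its lowest library, replicate 9, and Q175 replicate 14 was the highest. The means were 79.8 ± 27.7 and 257.4 ± 168 (SD, n = 5 each), with a log2 fold change of 1.71 ± 0.40 (SE) and an adjusted p of 0.345 in edgeR and 0.0154 in DESeq2.

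Gabra2, an alpha subunit gene expressed by astrocytes as well as neurons, reached 75.6, 44.7, 83.5, 63.9 and 37.1 normalized counts in WT against 108, 139, 108, 309.7 and 85.1 in Q175, in the same order of replicates. The groups did not overlap, although the highest WT library and the lowest Q175 library lay close together. Its log2 fold change was 1.33 ± 0.37 (SE), with an adjusted p of 0.365 in edgeR and 0.0745 in DESeq2. Gabrb1, the beta subunit gene of the same cluster, had 412, 242, 436, 365.5 and 322 in WT and 590.1, 698, 471, 1765 and 699 in Q175, again without overlap. Here the log2 fold change was 1.29 ± 0.33 (SE), with an adjusted p of 0.345 in edgeR and 0.0453 in DESeq2. Gabra4, the subunit gene typical of MSNs, overlapped between the groups, with 145, 84.5, 204, 82.0 and 48.1 in WT and 182, 182, 155, 551 and 95.4 in Q175. WT replicate 6 was above all Q175 libraries but replicate 14, and the difference was 1.08 ± 0.48 (SE, edgeR adjusted p = 0.746, DESeq2 adjusted p = 0.523).

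Of the genes that handle GABA, Abat did not overlap between the groups and Slc6a11 did. Abat, which removes the amino group of GABA, stood at 493, 416, 636, 729.6 and 604 normalized counts in WT and at 1638.5, 815, 946, 3734 and 839 in Q175. Replicates 3 and 14 carried the highest Q175 values, and the other 3 lay just above WT. The log2 fold change of Abat was 1.51 ± 0.40 (SE), with an adjusted p of 0.345 in edgeR and 0.0415 in DESeq2. Slc6a11, the astrocytic transporter, had 171, 158, 135, 419.7 and 624.5 in WT and 866.5, 275, 392, 1291 and 702 in Q175. WT replicates 7 and 8 each lay above 2 Q175 libraries and apart from the other 3 WT libraries. Its difference of 1.26 ± 0.49 (SE) had an adjusted p of 0.638 in edgeR and 0.38 in DESeq2. Groups without overlap, higher in Q175, were thus found for 3 of the 6 genes (Gabra2, Gabrb1 and Abat), beside 0.788% of all genes tested.

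Astrocyte markers moved with this difference. Their level over 15 genes was 441.5, 396, 342, 570.4 and 544 in WT and 1019.6, 773, 773, 2056 and 750.1 in Q175, without overlap, and all 15 were higher in Q175, 14 of them at an unadjusted p under 0.05 in edgeR. The pan-neuronal level over 10 genes overlapped, with 398, 369, 602, 455 and 209 in WT and 386, 499.5, 491, 952 and 338 in Q175, and 2 of the 10 were higher at that threshold. With the astrocyte level as a term in edgeR's fit, the log2 fold changes of the 6 genes were between -0.36 (Slc6a11) and 0.49 (Gabrg1), with a median of 0.01, and 0 of 6 had an unadjusted p under 0.05, where 1.06% of all genes were higher with one. With the pan-neuronal level as a term they were between 0.44 (Gabra4) and 1.51 (Gabrg1), and 5 of 6 had one, beside 4.01% of all genes. Since the astrocyte level did not overlap between the groups, its term and genotype cannot be told apart in that fit. The pan-neuronal level did overlap, so the fits with these terms are not on an equal footing. The part of astrocytic RNA in the difference was not tested.

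Sex and 1 library also moved with it. With sex as a term the log2 fold changes were between 0.75 and 1.35, and 2 of 6 (Gabra2 and Gabrg1) had an unadjusted p under 0.05 in edgeR, beside 1.14% of all genes that were higher with one in that fit. Within females (4 Q175 against 1 WT) all 6 genes were higher in Q175, by 0.70 to 1.86 on the log2 scale, and within males (1 against 4) by 0.45 to 0.92. Q175 replicate 14, a female library, held the highest value of its group for 6 of 6 genes and the highest astrocyte level. Without it the median log2 fold change of the 6 was 0.88, between 0.45 (Gabra4) and 1.24 (Gabrg1), and 4 of 6 had an unadjusted p under 0.05, beside 3.34% of all genes.

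Most other GABA-A receptor subunit genes were higher in Q175 too, mostly by smaller amounts. Of the 19 subunit genes, 13 were tested, and these include Gabrg1, Gabra2, Gabrb1 and Gabra4 described above. Among the 13, 12 were higher in Q175, and 5 had an unadjusted p under 0.05 in edgeR, beside 5.47% of all genes tested. Those 5 were the subunit genes described above and only 1 other, Gabra3. The 3 astrocyte-typical genes (Gabrg1, Gabra2 and Gabrb1) had a median log2 fold change of 1.33. The 8 neuron-typical genes were all higher as well, with a median of 0.46, but 1 of 8 had an unadjusted p under 0.05. That gene was Gabra3, which encodes an alpha subunit of neurons, with a log2 fold change of 1.57 ± 0.64 (SE, edgeR adjusted p = 0.679). Its Q175 libraries had a median of 40.1 and a maximum of 272 normalized counts, against 30.8 and 45.6 in WT. The median Q175 library thus lay within the range of WT, and the part of the highest library in the difference was not tested. Gabra5, an extrasynaptic alpha subunit gene named here after its value was seen, had 1.34 ± 0.63 (SE), so both exceeded Gabrb1 and the lists overlapped. Whether they differ was not tested. Gabrp and Gabrr3 were at 0 in all 18 libraries, Gabrr1 in 16 and the cerebellar subunit gene Gabra6 in 14.

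**Figure D2:**
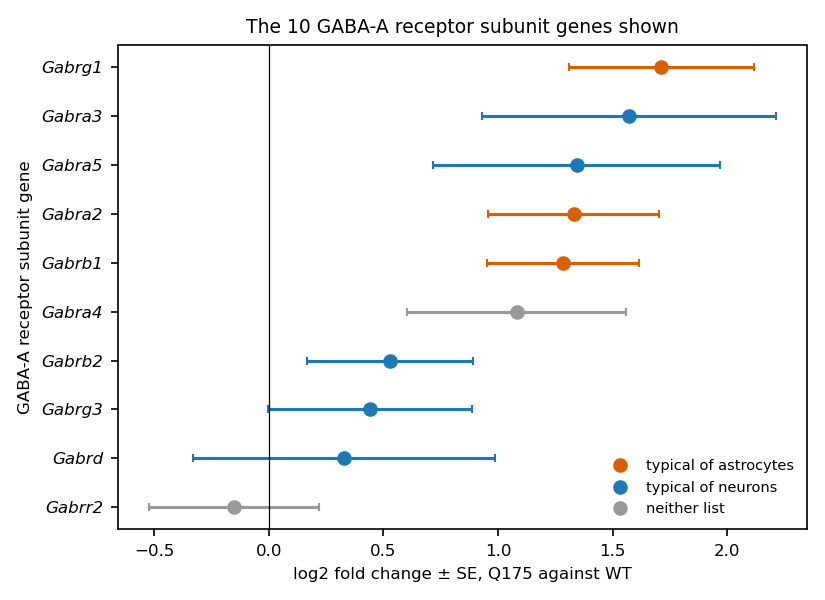
Log2 fold change of Q175 against WT with its SE for 10 of the 13 GABA-A receptor subunit genes tested by edgeR, coloured by whether a subunit is typical of astrocytes, of neurons or in neither list. The 3 astrocyte-typical genes lie between 1.29 and 1.71 and the neuron-typical genes shown between 0.33 and 1.57, with Gabra3 and Gabra5 among the astrocyte-typical ones.

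As a share of the per-kilobase level of 11 subunit genes, the 3 astrocyte-typical ones made up 24.6 ± 11.6% in WT, 29.8 ± 8.46% in Tyrobp-/-, 33.6 ± 9.62% in Q175 and 34.4 ± 10.7% in Q175;Tyrobp-/- libraries (SD, n = 5, 3, 5 and 5), which overlap widely.

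Other genes of GABA metabolism differed unevenly between Q175 and WT. Over all 18266 genes tested, 8538 were higher in Q175, and 5.47% were higher at an unadjusted p under 0.05 in edgeR. Of 9 genes of synthesis, breakdown and glutamine supply, 8 were higher in Q175, 4 of them at that threshold. Beside Abat these were Aldh1a1 (2.25 ± 0.55, SE), an aldehyde dehydrogenase that can make GABA from putrescine products, Maob (1.66 ± 0.48), the monoamine oxidase of that route, and Aldh5a1 (0.78 ± 0.33), which oxidizes the product of Abat. Gad1 and Gad2, the enzymes that make GABA from glutamate in neurons and named here after their values were seen, had log2 fold changes of 0.01 ± 0.27 and 0.18 ± 0.28 (SE). Among 9 transporter genes 7 were tested, 4 were higher and 2 passed that threshold, Slc6a11 and the glutamine transporter gene Slc38a3 (0.87 ± 0.29, SE). Of 13 genes of inhibitory synapse scaffold and chloride transport, 2 passed it, among them Trak2 (0.89 ± 0.30, SE), a mitochondrial trafficking adaptor that binds GABA-A receptors. None of the 5 genes of GABA-B receptors and their auxiliary subunits passed it. No gene of these lists was called by edgeR at an FDR of 0.1.

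The comparison of Tyrobp-/- with WT asks what the deletion does without the huntingtin allele. The 6 genes were again higher, by a median log2 fold change of 1.10 beside 0.02 over all 18017 genes tested. edgeR called 0 of the 6, beside 0.0222% of all genes, and counted 2 of 6 (Gabrb1 and Gabrg1) as higher at an unadjusted p under 0.05, beside 3.66% of all genes. DESeq2 called 0 of 6, beside 0.932%, and counted 3 at that unadjusted threshold, beside 3.9% of all genes. In each gene 1 library, replicate 20, lay above the other 2. Gabrg1 had 55.8, 117 and 666 normalized counts in Tyrobp-/- replicates 15, 19 and 20, a log2 fold change of 1.83 ± 0.63 (SE, edgeR adjusted p = 0.61).

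The same order of libraries held for the other genes. Gabra2 had 38.6, 63.0 and 258.5, Gabrb1 219, 409.9 and 1784.5 and Gabra4 35.4, 78.5 and 627.5 normalized counts in the same libraries. Abat had 361.6, 754 and 2018 and Slc6a11 294, 534 and 976. In replicate 15 the counts of Gabra4, Gabrb1 and Abat were below every WT library. On the log2 scale the differences from WT were 1.02 ± 0.54 for Gabra2, 1.22 ± 0.52 for Gabrb1, 1.16 ± 0.76 for Gabra4, 0.91 ± 0.42 for Abat and 1.04 ± 0.53 for Slc6a11 (SE), with edgeR adjusted p between 0.703 and 0.891. Without replicate 20 those of all 6 genes were between -0.90 (Gabra4) and 0.51 (Slc6a11), with a median of -0.04, and 0 of 6 had an unadjusted p under 0.05, where 1.88% of all genes were higher with one. Without replicate 15 the median was instead 1.54 and 6 of 6 were higher at that threshold, beside 4.41% of all genes, and without replicate 19 it was 1.42 with 4 of 6, beside 4.08%. With all libraries and sex as a term they were between 0.66 and 1.42, and again 0 of 6 had one, beside 1.08% of all genes. The astrocyte level of the 3 libraries, 333, 639.7 and 1836, was likewise highest in replicate 20, and with it as a term in the fit the log2 fold changes lay between -0.83 and 0.38. The pan-neuronal level of that library was the highest of its group as well (259, 310.1 and 880.5), and its part in the result was not tested beyond the fit with it as a term, which gave 0.18 to 1.16.

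Slc6a11 moved least of the 6 when that library was left out, from 1.04 to 0.51 on the log2 scale. Among the other GABA genes, Gabra3 (2.05), Aldh1a1 (2.64), Maob (1.81), the glutamine synthetase gene Glul (0.71) and Trak2 (0.51) were higher on the log2 scale at an unadjusted p under 0.05 in edgeR. The rho subunit gene Gabrr2 (-1.26) was lower. Over all genes 3.66% were higher and 3.15% lower at that threshold. Gabra3 had a median of 43.4 and a maximum of 300 normalized counts in Tyrobp-/-, against a maximum of 45.6 in WT. How far the values of these genes rest on replicate 20 was not tested.

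Deletion of Tyrobp in Q175 mice is the comparison that asks whether the adaptor shapes the Q175 profile. In Q175;Tyrobp-/- replicates 5, 11, 12, 13 and 16, Gabrg1 had 339, 74.4, 56.8, 223 and 185 normalized counts and Gabra2 had 194.9, 40.8, 53.7, 88.4 and 84.1. Gabrb1 had 1212, 227, 228, 730.3 and 678 and Gabra4 279.5, 48.8, 66.0, 110.5 and 107. Abat had 2609.8, 438, 428, 1725 and 1698 and Slc6a11 1292, 275, 209, 703 and 777.5. Replicate 5, a female library, was the highest and replicates 11 and 12, both male, were the 2 lowest for 6 of 6 genes, and every gene overlapped with Q175, where 0.36% of all genes were lower without overlap.

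All 6 genes were lower than in Q175 on average, with log2 fold changes of -0.94 ± 0.53 for Gabra4, -0.71 ± 0.45 for Gabra2, -0.56 ± 0.51 for Gabrg1, -0.46 ± 0.48 for Gabrb1, -0.21 ± 0.56 for Abat and -0.12 ± 0.50 for Slc6a11 (SE), the last turning to 0.01 when libraries were scaled by their total counts. edgeR called 0 of 6, beside 0.0111% of 18059 genes, and counted 0 of 6 as lower at an unadjusted p under 0.05, beside 4.56% of all genes. DESeq2 likewise called 0, beside 0.227%. The median of -0.51, beside -0.05 over all genes, was -0.07 without Q175 replicate 14. Again 0 of 6 were lower at that threshold, beside 3.67% of all genes. Without Q175;Tyrobp-/- replicate 5 it was -0.94, and 2 of 6 (Gabra2 and Gabra4) were lower at that threshold, beside 10.8% of all genes. Within females (2 against 4) 3 of 6 genes were lower and within males (3 against 1) 6 of 6. Of the other GABA genes, Gabrd (-1.27), the delta subunit gene that pairs with Gabra4, was lower at an unadjusted p under 0.05, as were Gabbr1 (-0.45) and Kctd16 (-1.08) of the GABA-B receptor, the gephyrin gene Gphn (-0.35) and Slc38a3 (-0.87). The MSN markers moved with them, since 12 of 12 were lower and 5 passed that threshold, and their part was not tested.

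Against Tyrobp-/- libraries, Q175;Tyrobp-/- libraries gave log2 fold changes between -1.02 (Gabra4) and 0.38 (Abat), 2 of the 6 being higher. edgeR called 0 of 6, beside 0% of 17723 genes, and DESeq2 0 of 6, beside 3.84%. None had an unadjusted p under 0.05 in edgeR, beside 4.99% of all genes that were higher and 8.24% that were lower at that threshold. Without Tyrobp-/- replicate 20 all 6 were higher, between 0.63 and 1.28, with edgeR adjusted p from 0.404 to 0.638 in that fit. The interaction, the difference between the effect of Q175 with and without the deletion, was negative for all 6, from -2.36 ± 0.89 for Gabrg1 to -1.07 ± 0.81 for Abat (SE). Its edgeR adjusted p was between 0.716 and 0.734, with 0 of 6 called beside 0% of 18613 genes, and 2 of 6 (Gabrg1 and Gabra2) had an unadjusted p under 0.05, beside 3.02% of all genes in that direction. DESeq2 called 0 of 6, beside 0.0107%, and counted 4 at the unadjusted threshold, beside 4.05%. Without Tyrobp-/- replicate 20 the interaction lay between -0.73 and -0.04. In that fit 0 of 6 had an unadjusted p under 0.05 in edgeR, beside 0.748% of all genes in that direction. Without Q175;Tyrobp-/- replicate 5 its median was -2.15 and 4 of 6 had one, beside 5.94% of all genes. The comparisons share control libraries, so their values are set side by side and not correlated.

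**Figure D3:**
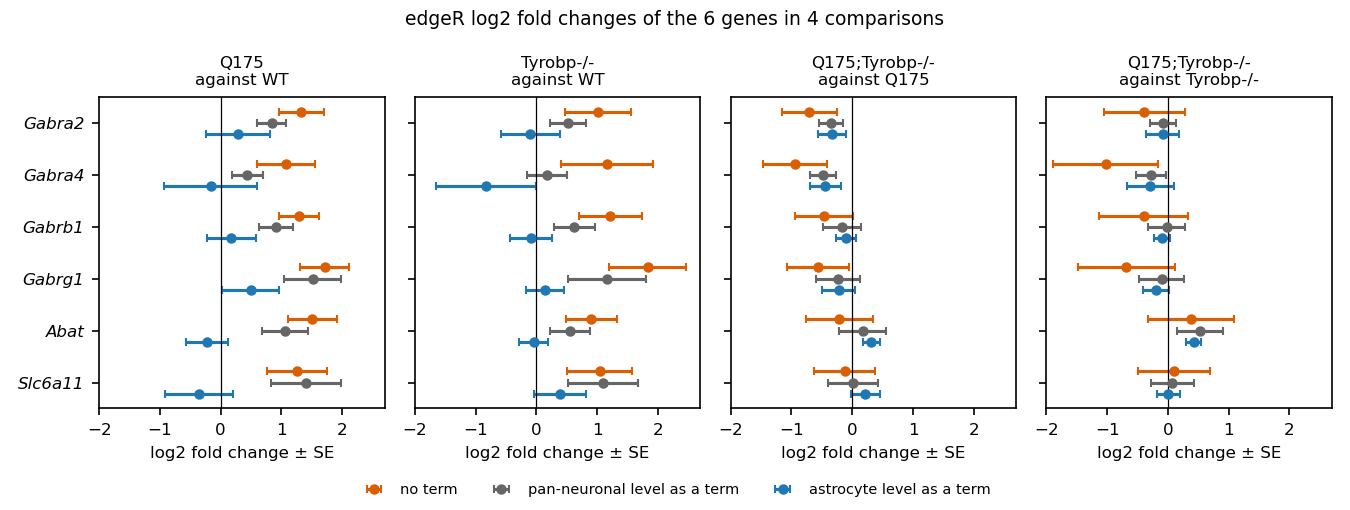
Log2 fold changes with SE of the 6 genes in 4 comparisons, from edgeR's fit without a term, with the pan-neuronal marker level and with the astrocyte marker level as a term. In Q175 against WT the values without a term lie between 1.08 and 1.71 and those with the astrocyte term between -0.36 and 0.49.

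Across all 18 libraries the 6 genes differed in which markers they followed. Correlations were computed between log2 normalized counts of each gene and the log2 level of 8 marker lists, 48 relations in all, with 100000 permutations and Benjamini-Hochberg adjustment over the 48. The libraries share their microglial background and the scaling, and the genotypes are mixed among them. Abat followed the astrocyte level most closely, with a Pearson r of 0.96 and a Spearman rho of 0.96 (permutation p = 1e-05 for both, the smallest that these permutations can give). Gabrb1 had an r of 0.94 and a rho of 0.91 (permutation p = 1e-05 for both), and Gabrg1 an r of 0.94 and a rho of 0.90 (permutation p = 1e-05 for both). Slc6a11 had an r of 0.88 and a rho of 0.85 (permutation p = 1e-05 and 2e-05), Gabra2 an r of 0.88 and a rho of 0.87 (2e-05 and 3e-05), and Gabra4, with 0.78 and 0.72, the weakest (0.00012 and 0.00136). The adjusted permutation p of these 12 values were between 6e-05 and 0.00384. Without the 2 libraries farthest from the median astrocyte level, Tyrobp-/- replicate 20 and Q175 replicate 14, r was 0.95 for Abat, 0.91 for Gabrb1, 0.89 for Gabrg1, 0.85 for Slc6a11, 0.78 for Gabra2 and 0.60 for Gabra4. Within genotypes, as deviations from group means, it was between 0.78 (Gabra4) and 0.96 (Abat).

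The order differed for the pan-neuronal level. Gabra4 had an r of 0.93 and a rho of 0.89 with it, Gabra2 0.91 and 0.81, Gabrb1 0.79 and 0.67, and Abat 0.70 and 0.61, each with an adjusted permutation p of at most 0.0164. Gabrg1 had an r of 0.62 (adjusted permutation p = 0.0113) and a rho of 0.41 (0.134), and without the same 2 libraries its r was 0.30, so the relation rested on them. Slc6a11 had an r of 0.34 (adjusted permutation p = 0.207) and a rho of 0.28 (0.313), and its r was 0.04 without those 2. With the MSN level the rho was 0.85 for Gabra4 and 0.72 for Gabra2 against 0.27 for Gabrg1 and 0.13 for Slc6a11. The highest rho of Gabra4, 0.91, was with the GABAergic interneuron list. Gabrg1 and Slc6a11 also followed the oligodendrocyte list (rho = 0.70 and 0.61, adjusted permutation p = 0.00384 and 0.0165). With the oligodendrocyte precursor (OPC) list their rho was 0.70 and 0.57 (0.00437 and 0.0259), and both lists were followed less closely than the astrocyte list. The microglial level ran the other way for Gabra4 (rho = -0.72, adjusted permutation p = 0.0033) and Gabra2 (rho = -0.56, adjusted permutation p = 0.0314). Its rho was 0.03 for Slc6a11.

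**Figure D4:**
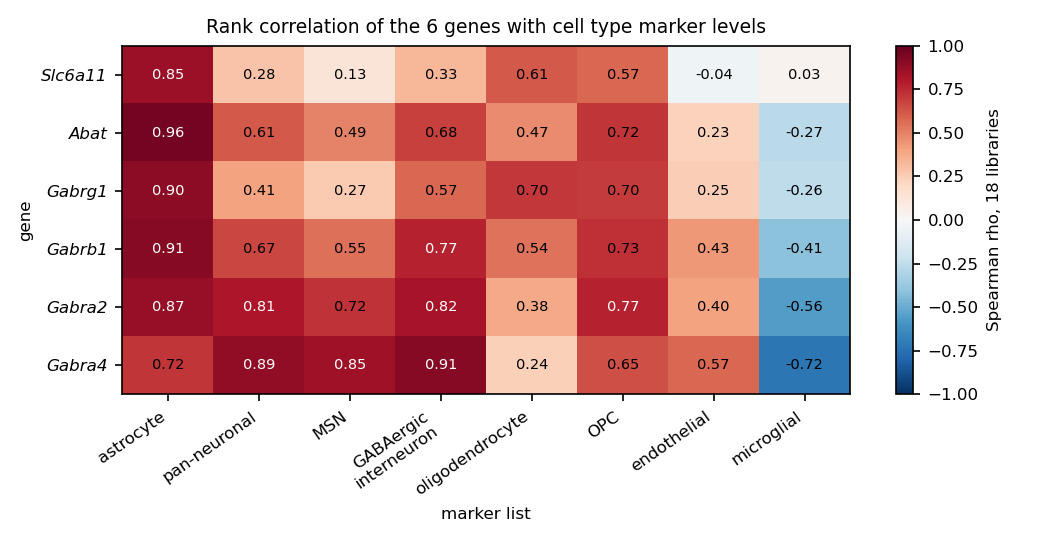
Spearman correlation over 18 libraries between each of the 6 genes (rows) and the level of 8 cell type marker lists (columns), printed in each cell. For the pan-neuronal list it is lowest for Slc6a11 at the top (0.28) and highest for Gabra4 at the bottom (0.89), while the astrocyte column stays between 0.72 and 0.96.

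Expressed relative to the astrocyte level of the same library, the values lay closer together for all 6 genes. The SD of log2 normalized counts over the 18 libraries was 1.002 for Abat, and that of its log2 ratio to the astrocyte level was 0.30. For Gabrb1 these values were 0.94 and 0.31, for Gabrg1 1.11 and 0.44, for Gabra2 0.89 and 0.43, for Slc6a11 1.04 and 0.50, and for Gabra4 1.12 and 0.70. Relative to the pan-neuronal level the values of all 6 genes also lay closer together. The SD was then 0.43 for Gabra2, 0.59 for Gabrb1, 0.61 for Gabra4, 0.72 for Abat, 0.88 for Gabrg1 and 1.01 for Slc6a11. The group means of the ratio to the astrocyte level were 0.33, 0.17, 0.42 and 0.60 for Abat and -2.54, -2.15, -2.15 and -2.30 for Gabrg1 on the log2 scale, in WT, Tyrobp-/-, Q175 and Q175;Tyrobp-/- libraries. For Gabrg1 these means lay within the largest SD inside a group, 0.61. For Abat the Tyrobp-/- and Q175;Tyrobp-/- means lay farthest apart, with an SD of 0.06 and 0.23, a difference that was not tested.

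Among themselves the 6 genes had Spearman correlations between 0.40 and 0.93 over the 18 libraries, with a median of 0.84 over the 15 pairs. Among the 16088 genes with a mean of at least 1 CPM, those most like Slc6a11 by Spearman rho of log2 CPM were Paqr8 (0.97), Fam107a, Sparcl1, Clu and Timp4 (0.95). Prex2 (0.98), Rragd, Zfp365, Dnajc27 and Gng7 (0.96) were most like Abat. The nearest to Gabrg1 were Bmpr1b (0.94), Gm6145, Lgr4, Cyp2j6 and Fermt2 (0.93), and to Gabrb1 Dok6 (0.97), the astrocytic water channel gene Aqp4 (0.96), Psd3, Ppargc1a and Cyp2j9 (0.96). Gabra2 was closest to Trpc6 (0.96), Nebl, Raver2 and 2900011O08Rik (0.95), and Gabra4 to Dgkb (0.98), Dtnb, Smarca1, Tceal6 and Cep126 (0.96).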

How the data were processed

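Microglia-enriched cells were sequenced with the SMART-Seq v4 kit, and per the study's methods STAR aligned the reads and featureCounts summed them by gene. The authors deposited raw counts of 55536 Ensembl genes, all of which matched GENCODE M21 (GRCm38, the build of the study's methods, whereas the labels list GRCh38). Of the count columns 2 matched no labelled sample and were not used. Total counts were between 11260410 and 29771983 per library, and counting error is small beside the spread between libraries. Counts were normalized by TMM, and each comparison was fitted on its own libraries with the quasi-likelihood test of edgeR 4.0.16 in R 4.3.3, after genes below 1 CPM in every sample were dropped, with Benjamini-Hochberg adjustment over all genes at an FDR of 0.1. The interaction was fitted over all 18 libraries. DESeq2 1.42.0, the authors' tool, was the alternative. Other alternatives were the scaling, an FDR of 0.05, the low-count filter, a joint fit of all groups, terms for sex and marker levels and leaving out each library. The fits were tested on simulated data. Marker levels used normalized counts plus 1, and correlations used 100000 permutations, in SciPy 1.17.1. Named genes are the 6 members, other GABA genes at an unadjusted p under 0.05 or at 0, and the 5 genes most like each member, of which some are not reported here. The members and lists were chosen with earlier results of these data known, so that neither their direction nor the share of lists that moved is independent evidence.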

Additional observations from a re-analysis of the deposited data

Results flagged for a closer look

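Of 18 groups of 5 libraries examined (each of the 6 genes in WT, Q175 and Q175;Tyrobp-/-), 6 held a library set apart from the rest of its group by Dixon's test. The test was run on normalized counts, not on their logarithms. Its rate of about 1 in 20 holds for independent sets of normally distributed values. Counts are skewed and these sets share libraries, so 6 of 18 cannot be compared with that rate. Q175 replicate 14 was the high library for Gabra2 (309.7 normalized counts), Gabra4 (551), Gabrb1 (1765) and Abat (3734). Q175;Tyrobp-/- replicate 5 was high for Gabra4, with 279.5 normalized counts. WT replicate 8 was high for Gabrg1, with 127.3 normalized counts. These genes vary together across libraries, so the 4 values of Q175 replicate 14 are not separate events. The same library had the highest astrocyte and pan-neuronal levels of its group, and the part of these in its values was not tested.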

How the results depend on the processing

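No paired analysis was possible because the groups share no replicate number. Most values kept their direction and side of the threshold. DESeq2 called 4 of the 6 genes in Q175 against WT where edgeR called 0, and over all genes 234 in that comparison, 168 against 4 in Tyrobp-/- against WT, 41 against 2 in Q175;Tyrobp-/- against Q175, 680 against 0 in Q175;Tyrobp-/- against Tyrobp-/- and 2 against 0 in the interaction. With 1 fit over all groups edgeR called 8 genes in Tyrobp-/- against WT and 14 in Q175;Tyrobp-/- against Q175, and with the pan-neuronal term 297 in the former and 1743 in Q175;Tyrobp-/- against Tyrobp-/-. Scaling by total counts moved the median of all genes from -0.05 to 0.08 in Q175;Tyrobp-/- against Q175 and from 0.04 to 0.15 in the interaction. Counts of the 6 genes at an unadjusted p under 0.05 when single libraries were left out were added after seeing the data. In Tyrobp-/- against WT the count was 2, beside 3.66% of all genes that were higher at that threshold. It was 0 without Tyrobp-/- replicate 20 (1.88%), 6 without replicate 15 (4.41%) and 4 without replicate 19 (4.08%). Without WT replicate 1, 2 or 7 it was 1 (2.96% to 3.41%). In Q175;Tyrobp-/- against Q175 the counts were 0, beside 1.82% to 9.33% of all genes that were lower, or 2 (without Q175;Tyrobp-/- replicate 5, 10.8%). In the interaction the count was 2, beside 3.02% of all genes in the negative direction. It was 0 without Tyrobp-/- replicate 20 (0.748%). It was 4 without Tyrobp-/- replicate 15 (5.07%) or 19 (4.56%), Q175 replicate 4 (4.02%) or Q175;Tyrobp-/- replicate 5 (5.94%). Without WT replicate 2, 7 or 8, Q175 replicate 14 or Q175;Tyrobp-/- replicate 11, 12, 13 or 16 it was 1 (1.35% to 2.86%). In Q175 against WT the counts stayed between 4 and 6, beside 3.34% to 6.16% of all genes that were higher. In Q175;Tyrobp-/- against Tyrobp-/- they stayed at 0, beside 3.26% to 8.76% of all genes higher and 5.01% to 8.46% lower.

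Reversed log2 fold changes were as follows, and the cause was not tested. With the astrocyte term, Q175 against WT gave -0.16 for Gabra4, -0.23 for Abat and -0.36 for Slc6a11, Tyrobp-/- against WT gave -0.10 for Gabra2, -0.83 for Gabra4, -0.086 for Gabrb1 and -0.046 for Abat, Q175;Tyrobp-/- against Q175 gave 0.32 for Abat and 0.22 for Slc6a11, and the interaction gave 0.31 for Gabra4, 0.062 for Gabrb1 and 0.54 for Abat. In Q175;Tyrobp-/- against Q175, Abat was 0.14 with the sex term and 0.17 with the pan-neuronal term, and Slc6a11 was 0.26 and 0.014 with these and 0.014 with total count scaling. The correlation of Gabra4 with oligodendrocyte markers was -0.071 with total count scaling and -0.14 with the median of the markers.

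Leaving out single libraries gave, in Tyrobp-/- against WT, -0.18 to 1.43 for Gabra2, -0.90 to 1.67 for Gabra4 and -0.11 to 1.66 for Gabrb1. In Q175;Tyrobp-/- against Q175 it gave -0.61 to 0.37 for Abat and -0.55 to 0.22 for Slc6a11. In Q175;Tyrobp-/- against Tyrobp-/- the ranges were -0.88 to 0.83 for Gabra2, -1.60 to 1.07 for Gabra4, -0.84 to 0.94 for Gabrb1, -1.16 to 0.98 for Gabrg1, -0.0094 to 1.28 for Abat and -0.34 to 0.63 for Slc6a11.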
